A study of Mus musculus with 24 samples.

Results

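The genes described here encode the elastic fibre of the arterial wall. They are 10 genes chosen by name: Eln, Fbn1, Fbn2, Fbln1, Fbln2, Fbln5, Efemp2, Lox, Mfap4 and Mfap5. All 10 were found by their Ensembl identifiers among the 54752 gene rows of the count table, and all 10 were among the 16463 genes with enough reads to be tested. The rule used no measured value, but the genes were chosen with earlier results of these data known. Expression was measured by bulk RNA-Seq in the ductus arteriosus (DA) and the ascending aorta, microdissected from late-gestation mouse embryos on a C57/Black6 background, before the DA closes. The DA is the fetal vessel that carries blood from the pulmonary artery to the aorta and closes after birth. The study asked how loss of Prdm6, a smooth muscle-selective putative methyltransferase, changes gene expression in each of these vessels.

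Prdm6-deficient embryos were Wnt1Cre;PRDM6f/f, so that the Wnt1 promoter drove Cre in neural crest cells, and cells of the vessel wall from other lineages kept the gene. They gave 5 DA samples, of which replicates 1 and 2 are pools of 2 embryos each, and 5 aorta samples. The controls gave 7 DA and 6 aorta samples. Of these, 5 in each vessel were PRDM6wt/f without Cre, and 1 in each vessel, from the same animal, was Wnt1Cre;PRDM6wt/wt. The remaining control DA sample was PRDM6wt/wt without Cre. The labelled replicate 4 of the Prdm6-deficient DA was not analysed here. The 23 libraries held from 15163931 to 22610501 counts, with a median of 19985218, and each elastic fibre gene had at least 1109 counts in every library.

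An elastic fibre has a core of cross-linked elastin laid down on a scaffold of fibrillin microfibrils. Smooth muscle cells secrete the elastin monomer, tropoelastin. Fibulins bring it to the microfibrils, and lysyl oxidase oxidizes its lysines so that the chains cross-link. In the aorta these fibres form concentric lamellae that stretch and recoil with each beat, whereas the fetal DA of several mammals is known for thinner and more broken elastic laminae than the adjoining aorta.

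Coding sequence is shown for the most abundant of the 10 genes and for the one whose level fell in the Prdm6-deficient DA, since these show what the RNA encodes. Both were read from GENCODE M21 transcripts on mm10. Eln lies at chr5:134702593-134747323 on the minus strand, and the stretch of 180 coding bases shown runs over 2 exons at chr5:134711081-134712445, coding bases 1780 to 1959 of 2583. The capitals mark in-frame GGNGTNCCN, the codons for glycine, valine and proline, searched on the coding strand. This run occurs 17 times in the coding sequence and 5 times in the stretch shown. Mfap5 lies at chr6:122505845-122529290 on the plus strand. The first 180 bases of its coding sequence of 459 bases are shown, from 5 exons at chr6:122514343-122524506. The capitals mark the codons for arginine, glycine and aspartate, the sequence that integrins bind, which begin at coding base 88.
Eln: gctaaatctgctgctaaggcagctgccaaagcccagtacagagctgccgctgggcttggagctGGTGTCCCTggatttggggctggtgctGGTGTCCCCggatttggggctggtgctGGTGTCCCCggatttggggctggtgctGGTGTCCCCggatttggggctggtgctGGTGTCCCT
Mfap5: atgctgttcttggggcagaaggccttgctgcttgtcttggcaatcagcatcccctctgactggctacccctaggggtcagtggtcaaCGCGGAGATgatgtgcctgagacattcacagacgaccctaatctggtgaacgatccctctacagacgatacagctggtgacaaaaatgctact

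The other genes lie at chr2:125300594-125507993 (Fbn1, minus strand), chr18:58008623-58210487 (Fbn2, minus), chr15:85205949-85286535 (Fbln1, plus), chr6:91212455-91272540 (Fbln2, plus), chr12:101746565-101819055 (Fbln5, minus), chr19:5473954-5482517 (Efemp2, plus), chr18:52516067-52529867 (Lox, minus) and chr11:61485431-61488900 (Mfap4, plus). Lox and Fbn2 share chromosome 18 with Prdm6, at distances of 0.934 and 4.433 Mb from it, and the part of this neighbourhood in their values was not tested. Exons of 6 of the 10 overlap exons of a gene on the opposite strand, from 30 bases in Lox to 2442 in Fbn1, where Gm9913 lies. Whether the counting used strand is not given in the sources used here, so reads from these stretches cannot be told apart.

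Levels are given in CPM, read counts scaled to a common library total and between libraries by TMM, and differences as log2 fold changes with their standard error (SE). A gene was called where its adjusted p was under 0.01 and its log2 fold change was beyond 0.5. Adjusted p-values come from edgeR's quasi-likelihood test with Benjamini-Hochberg adjustment over all 16463 genes. In the DA, 1 of the 10 genes was called between genotypes, Mfap5, which fell, while 5.43% of all tested genes were called. In the aorta, 1 of the 10 was called, Fbn2, which rose, against 2.45% of all tested genes. Between control DA and control aorta 2 of the 10 were called, Fbn2 and Mfap5, both higher in the DA, against 5.36% of all tested genes. Between the vessels of Prdm6-deficient embryos edgeR called none of the 10, with 4 at an unadjusted p under 0.05, and DESeq2 and limma-voom also called none, while edgeR called 0.267% of all tested genes.

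**Figure D1:**
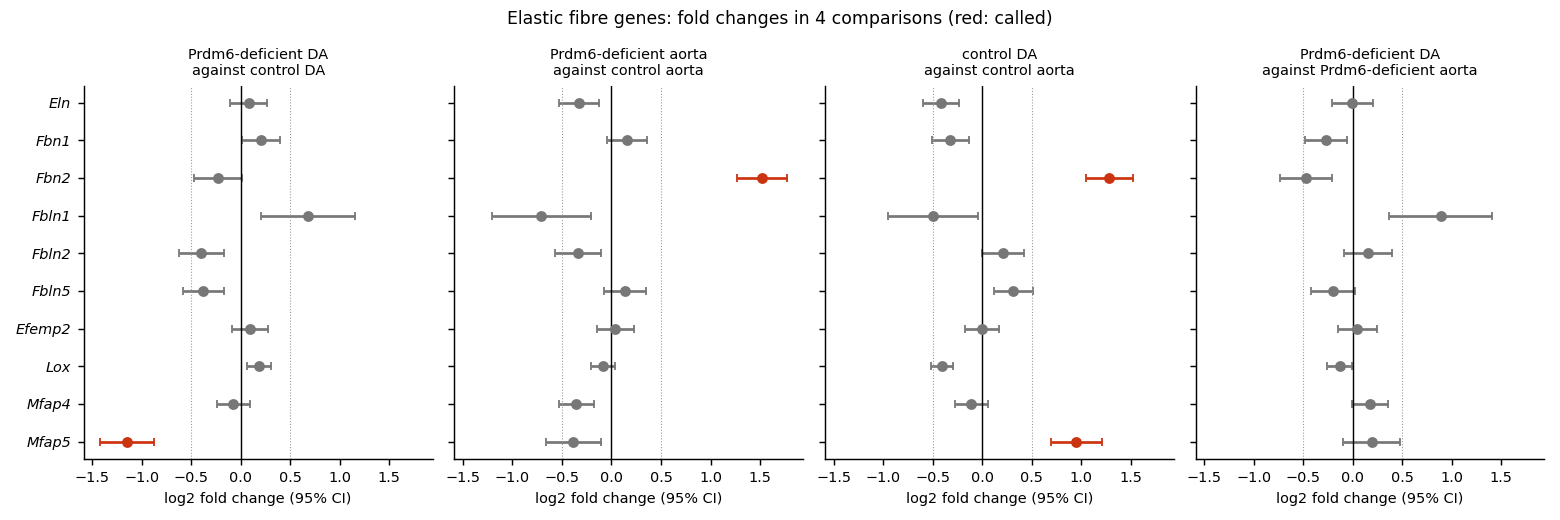
Log2 fold change (x axis, with 95% confidence interval) of each of the 10 elastic fibre genes (rows) in 4 comparisons (panels). Red points were called, dotted lines mark a log2 fold change of 0.5 in either direction: Mfap5 alone is red in the DA, Fbn2 alone in the aorta, and both between the control vessels.

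The median log2 fold change of the 10 genes between genotypes was 0.0015 in the DA, where the median of all tested genes was 0.012, and -0.21 in the aorta, where it was -0.0010. Sample ranges did not overlap for 2 of the 10 in the DA (5.66% of all tested genes), 2 in the aorta (6.95%), 4 between control vessels (5.36%) and 2 between deficient vessels (3.52%). At an unadjusted p under 0.05 there were 6 of 10 in the DA (23.7% of all tested genes), 6 in the aorta (14%), 8 between control vessels (21.6%), 4 between deficient vessels (10%) and 7 for the difference of effects (15.9%). In each vessel the 10 genes were split between higher and lower estimates, with 5 of 10 higher in the DA and 4 of 10 in the aorta.

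Eln was the most abundant gene of all in each of the 23 libraries. It took 5.86% ± 0.676 (SD, n = 7) of the counts in control DA, 6.11% ± 0.680 (n = 5) in Prdm6-deficient DA, 7.64% ± 0.805 (n = 6) in control aorta and 6.30% ± 0.744 (n = 5) in Prdm6-deficient aorta. Per kilobase of exon, the order in control DA was Eln at 7210 CPM per kb, Fbln5 at 874, Mfap4 at 428, Lox at 233, Fbln2 at 186, Mfap5 at 155, Fbn1 at 52.7, Efemp2 at 43.2, Fbln1 at 27.2 and Fbn2 at 22.2. Within 1 SD, Fbln2 overlapped Mfap5, as did Fbn1 and Efemp2, Efemp2 and Fbln1, and Fbln1 and Fbn2. The order in control aorta was the same, from 9586 CPM per kb for Eln to 9.13 for Fbn2. The length used was that of all annotated exons of a gene, 8098 bases for Eln and 3589 for Mfap5. The transcripts whose coding sequence is shown above have 3853 and 946 bases. The order between genes can change with the length used, and other lengths were not tried.

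Eln, which encodes tropoelastin, had CPM of 64589.6, 49932, 70526, 63995 and 59049 in the 5 Prdm6-deficient DA samples. In control DA it ran from 47087 to 68052 with a median of 58751. The genotypes overlapped, and the log2 fold change was 0.08 (SE 0.09, 95% interval -0.11 to 0.27, adjusted p = 0.688). In the Prdm6-deficient aorta Eln had CPM of 71257, 58659, 52154, 59572 and 67511, against 69515 to 87862 (median 77225) in control aorta. Of the 5 deficient samples, only replicate 1 lay inside the control range, and the log2 fold change was -0.33 (SE 0.10, adjusted p = 0.0454), which did not pass. The clearest Eln difference was between the control vessels. Every control DA sample lay below every control aorta sample, by -0.41 on the log2 scale (SE 0.09, adjusted p = 0.00177), which passed the p threshold but not that of size. Since these ranges were apart, Eln had to be lower in the DA in each of the 6 control animals that gave both vessels. The log2 differences within these animals were -0.79 to -0.25. Without Prdm6 the vessels differed by -0.0050 (SE 0.10, 95% interval -0.21 to 0.20, adjusted p = 0.995), and the test of whether the genotype effect differed between vessels gave 0.41 (SE 0.13, adjusted p = 0.0831).

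**Figure D2:**
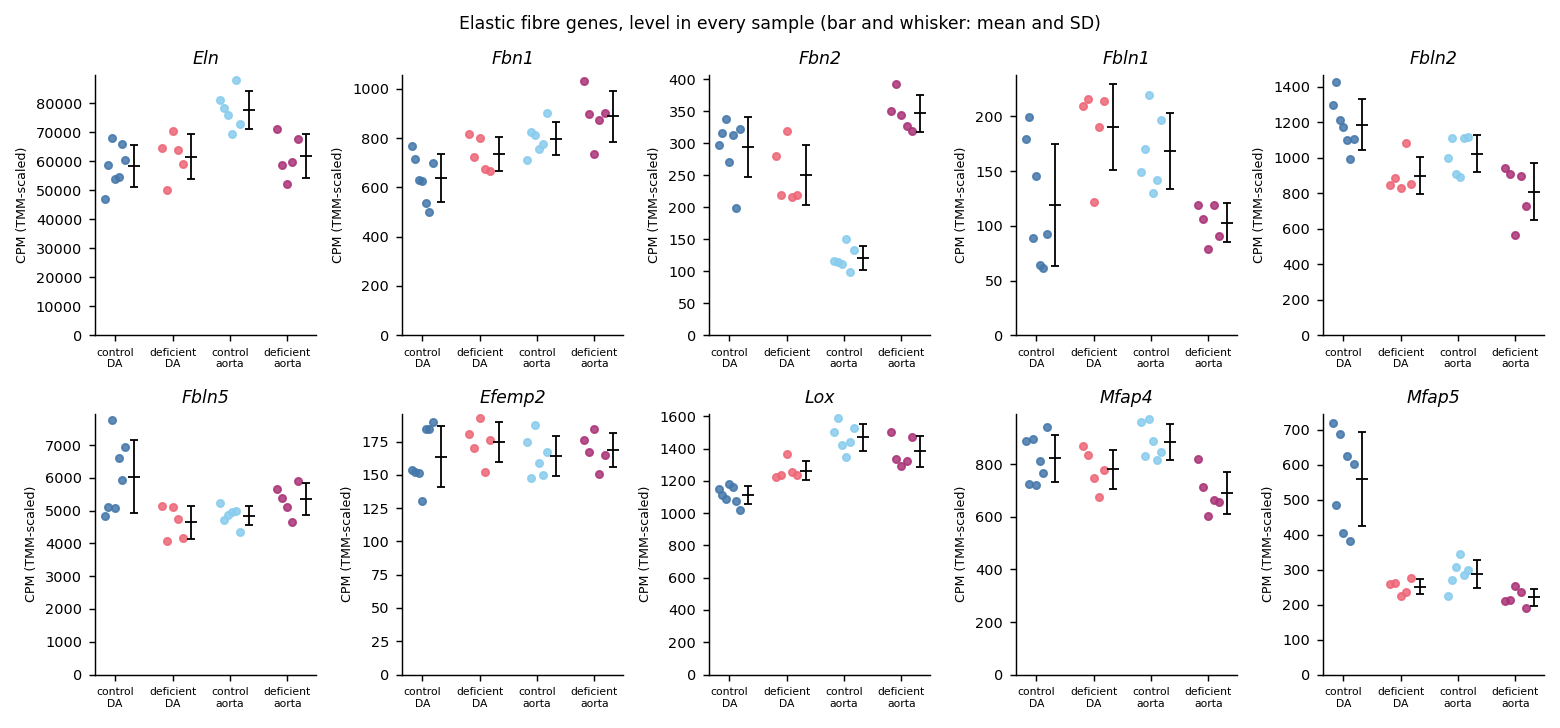
CPM (y axis, from 0) of each elastic fibre gene in every sample of the 4 groups (x axis), with the mean and SD beside the points. The Mfap5 points of control DA, from 383 to 719, lie above all others, and the Fbn2 points of control aorta, from 99.2 to 150, lie below all others.

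Fibrillins build the microfibril. Fbn1 encodes fibrillin-1, the main fibrillin of the postnatal wall, and Fbn2 encodes fibrillin-2, which is made mostly in the embryo. Across both vessels, the largest genotype difference among the 10 genes was that of Fbn2 in the aorta. In control aorta its CPM ran from 99.2 to 150 with a median of 115. In the Prdm6-deficient aorta its CPM was 350, 393, 345, 327 and 319, all far above the highest control. Fbn2 rose 2.87-fold there, a log2 fold change of 1.52 (SE 0.12, adjusted p = 3.84e-09).

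In the DA, Fbn2 had CPM of 279, 219.7, 318, 216 and 219 in the deficient samples against 199 to 338 (median 313) in controls. These ranges overlapped, with a log2 fold change of -0.23 (SE 0.12, 95% interval -0.48 to 0.01, adjusted p = 0.246). The genotype effect on Fbn2 differed between the vessels by -1.75 (SE 0.17, adjusted p = 7.44e-07). Fbn2 was the only one of the 10 genes that edgeR called in that test, where it called 2.58% of all tested genes. DESeq2 called 4 of the 10 there and limma-voom 2, and the shares of all genes that these tools called there are not given here. Within the first run of animal numbers the aorta difference was 1.60 (2 deficient, 1 control) and within the second it was 1.53 (3 deficient, 5 controls), both without a test.

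Control DA and control aorta did not overlap in Fbn2 either. The gene was 2.44-fold higher in control DA (log2 1.28, SE 0.12, adjusted p = 1.06e-08). Within the 6 control animals with both vessels the difference was 0.79 to 1.70, with a direction already fixed by the ranges. In Prdm6-deficient embryos the estimate had the opposite sign (log2 -0.47, SE 0.13, adjusted p = 0.0865), a difference that did not pass. Every DA sample lay below every aorta sample there, but only just. The highest DA sample had 318.4 CPM and the lowest aorta sample 318.6. The level of Fbn2 in the Prdm6-deficient aorta, 347 CPM ± 28.7 (SD, n = 5), stood beside 294 CPM ± 46.9 (n = 7) in control DA and 121 CPM ± 18.1 (n = 6) in control aorta.

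Fbn1 had means of 639 CPM ± 96.6 (SD, n = 7) in control DA, 735 ± 70.2 (n = 5) in Prdm6-deficient DA, 798 ± 66.0 (n = 6) in control aorta and 888 ± 105 (n = 5) in Prdm6-deficient aorta. Its ranges overlapped in all 4 comparisons and none was called. The genotype difference was 0.20 in the DA (95% interval 0.0074 to 0.40, adjusted p = 0.189) and 0.16 in the aorta (-0.05 to 0.36, adjusted p = 0.582). The share of each fibrillin set the control aorta apart from the other groups. Per kilobase, Fbn2 made up 12.2% ± 1.77 (SD, n = 6) of fibrillin RNA there, against 29.7% ± 3.18 (n = 7) in control DA, 23.7% ± 1.87 (n = 5) in Prdm6-deficient DA and 26.5% ± 2.71 (n = 5) in Prdm6-deficient aorta. The highest control aorta sample, at 15.4%, lay below the lowest sample of any other group, at 21.8%.

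**Figure D3:**
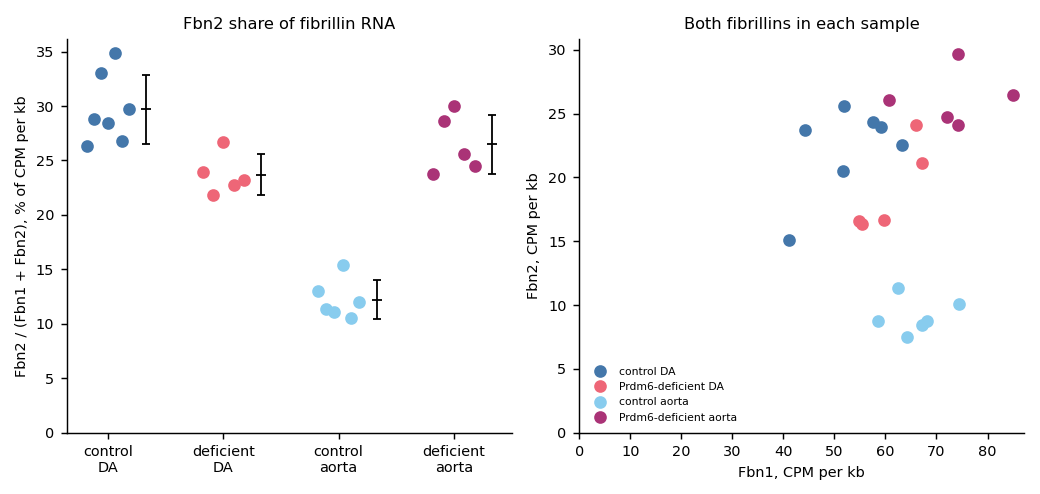
Left, share of Fbn2 in the summed CPM per kb of Fbn1 and Fbn2 (y axis, percent) in every sample of the 4 groups, with mean and SD. Right, Fbn2 against Fbn1, both in CPM per kb, in every sample: the control aorta samples, at 10.5% to 15.4% Fbn2, lie below all other samples.

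Fibulins are calcium-binding glycoproteins that link tropoelastin to microfibrils and cells. None of the 4 measured here (Fbln1, Fbln2, Fbln5 and Efemp2, which encodes fibulin-4) was called in any of the 4 comparisons by edgeR, and none by DESeq2 or limma-voom. At an unadjusted p under 0.05 there were 3 in the DA (23.7% of all tested genes) and 2 in the aorta (14%). Between control vessels there were 3 (21.6%) and between deficient vessels 1 (10%). Fbln1, whose product binds the elastin core, had the largest coefficient of variation of the 10 genes in 3 of the 4 groups, up to 47.0% in control DA. In the Prdm6-deficient aorta that of Fbln2 was larger, at 19.7% against 17.4%. In the Prdm6-deficient DA its CPM was 209.8, 216, 122, 190.4 and 214, against 61.8 to 199.7 (median 92.9) in control DA. The log2 fold change was 0.68 (SE 0.23, adjusted p = 0.0535). Without control DA replicate 2, the only control DA sample with Cre, it was 0.85 (adjusted p = 0.00915) and would be called.

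In the aorta the Fbln1 estimate had the opposite sign. Its CPM was 119, 106, 78.7, 119 and 90.7 in deficient samples, all under the control range of 130.1 to 220 (median 160). The log2 fold change was -0.71 (SE 0.24, adjusted p = 0.105), and -0.71 with an adjusted p of 0.00207 in a fit of the aorta samples alone. The test of the difference between vessels gave 1.39 (SE 0.34, adjusted p = 0.0117), short of the threshold with edgeR. It was called by DESeq2 (adjusted p = 0.00581), by limma-voom (0.00425), also with animal as a random block in limma-voom (0.00383), and with the replicate block (0.00852). It was also called without a low-count filter (0.00569) and without Cre-carrying controls (0.00478). The same held without Prdm6-deficient DA replicate 5, control DA replicate 1 or 2, or control aorta replicate 4 (0.00196 to 0.00979). These are 6 of 12 other settings and 4 of the 23 fits that left out 1 sample. The adjusted p reached 0.0585 in the other settings, so this call depends on the fit. The highest Fbln1 level among controls of each vessel, 199.7 CPM in the DA and 220 in the aorta, came from the 1 control animal with Cre.

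Fbln2 and Fbln5 had lower estimates in the Prdm6-deficient DA, by -0.40 (SE 0.11, adjusted p = 0.0146) and -0.38 (SE 0.10, adjusted p = 0.012), and neither passed. Fbln5 encodes fibulin-5, which tethers tropoelastin to microfibrils and to integrins. Its CPM was 5130.02, 4081, 5114, 4732 and 4174 in the deficient DA against 4833 to 7769 (median 5931) in control DA, and 3 of the 5 deficient samples lay below the control range. In the aorta the Fbln5 difference was 0.14 (95% interval -0.07 to 0.35, adjusted p = 0.673), and the difference between vessels was -0.52 (SE 0.14, adjusted p = 0.0311). Fbln2, which is known from the inner elastic lamina, differed by -0.34 in the aorta (SE 0.11, adjusted p = 0.0899). Efemp2, whose product carries lysyl oxidase to tropoelastin, had group means between 164 and 174 CPM. Its genotype difference was 0.09 in the DA (95% interval -0.09 to 0.27) and 0.04 in the aorta (-0.15 to 0.23).

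Lox encodes lysyl oxidase, the cross-linking enzyme. It had the smallest spread between samples, with a coefficient of variation of 4.60% to 6.89% in the 4 groups. In the Prdm6-deficient DA its CPM was 1227, 1234, 1365, 1253 and 1236, above the control range of 1019 to 1181 (median 1111) in every sample. This difference, 0.18 on the log2 scale (SE 0.06, adjusted p = 0.0364), did not pass, and 5.66% of all tested genes had genotype ranges that did not overlap in the DA. In the aorta the estimate was -0.09 (SE 0.06, 95% interval -0.21 to 0.04, adjusted p = 0.635). As with Eln, the larger Lox difference was between control vessels. Every control DA sample lay below the lowest control aorta sample of 1347 CPM, by -0.40 on the log2 scale (SE 0.05, adjusted p = 6.96e-06), past the p threshold but not that of size. Within the 6 control animals with both vessels the Lox difference was -0.56 to -0.19, with a direction already fixed by the ranges.

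Microfibril-associated proteins decorate the fibrillin scaffold. Mfap5 encodes MAGP-2, a small protein that binds fibrillins and carries the integrin-binding codons shown in capitals above. Its CPM in the Prdm6-deficient DA was 259, 260.5, 226, 235 and 277, against 383 to 719 (median 602) in control DA. All deficient samples lay below all controls, and Mfap5 fell to 45.1% of control, a log2 fold change of -1.15 (SE 0.13, adjusted p = 7.75e-07). Within the first run of animal numbers the difference was -1.29 (3 deficient, 2 controls) and within the second -1.02 (2 deficient, 5 controls), both without a test.

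Mfap5 in the Prdm6-deficient aorta had CPM of 210.4, 215, 253, 235 and 189.9, and the control aorta ran from 226 to 345 (median 291). These overlapped, with a log2 fold change of -0.39 (SE 0.14, 95% interval -0.67 to -0.11, adjusted p = 0.115). The difference of the genotype effect between vessels was -0.76 (SE 0.19, adjusted p = 0.0137), not called by edgeR. It was called by DESeq2 (adjusted p = 0.000803), with library totals only (0.00678), without a low-count filter (0.00934), and without control DA replicate 4 or 6 or control aorta replicate 4 (0.0041, 0.0022 and 0.00825), so this call depends on the fit. Control DA held 1.94 times as much Mfap5 as control aorta (log2 0.95, SE 0.13, adjusted p = 4.01e-06), without overlap. Within the 6 control animals with both vessels the difference was 0.23 to 1.67, with a direction already fixed by the ranges. In deficient embryos this vessel difference was 0.19 (SE 0.14, 95% interval -0.10 to 0.48, adjusted p = 0.745).

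Mfap4, whose product binds tropoelastin and helps its assembly, was not called in any comparison. Its mean was 823 CPM ± 87.9 (SD, n = 7) in control DA and 781 ± 75.2 (n = 5) in the Prdm6-deficient DA, with overlap. In the aorta it was 886 ± 67.5 (n = 6) in controls and 692 ± 81.2 (n = 5) in deficient samples, a log2 fold change of -0.36 (SE 0.09, adjusted p = 0.0109), just short of the p threshold and under that of size.

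Samples of one group did not carry the elastic fibre genes up and down together. Over the 45 pairs of genes, the correlation of deviations from the group means across 23 samples had a median of 0.0891, with 31 pairs above 0. It ran from -0.64 for Fbln1 and Fbln5 to 0.67 for Eln and Fbln5. The points share libraries and depth, and these values are given as a description. Outside the 10 genes, the pattern across all 23 samples most like that of Eln was that of Ltbp4 (Pearson r = 0.863), followed by Slc24a3 (0.846) and Nckap5l (0.803). The nearest pattern to Fbn2 was that of Tspan18 (r = 0.936), with means of 39.2 CPM in control aorta and 81.5 in the Prdm6-deficient aorta. Lpar1, a receptor for lysophosphatidic acid, was nearest to Mfap5 (r = 0.944), with 94.8 CPM in control DA and 29.7 in the Prdm6-deficient DA. For the other genes the nearest were Agtr2 for Fbn1 (r = 0.844), Akap12 for Fbln1 (0.900), Myrf for Fbln2 (0.846), Parva for Fbln5 (0.889), Gm7600 for Efemp2 (0.720), Specc1 for Lox (0.898) and Col4a6 for Mfap4 (0.790).

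Around these 10 genes lie other genes of the same pathway, taken from 3 lists. Of 26 other microfibril and elastic fibre genes, 1 rose and 3 fell in the Prdm6-deficient DA, and 3 rose and 2 fell in the Prdm6-deficient aorta, where 5.43% and 2.45% of all tested genes were called. The median log2 fold change of this list was -0.03 in the DA and 0.08 in the aorta. Between the control vessels Ltbp1, Hmcn1, Adamtsl2 and Adamtsl3 were higher in the DA, and Ltbp4 and Adamtsl5 lower. The one that rose in the DA was Fbln7, a fibulin that binds cells and heparin, from 8.08 CPM ± 3.08 (SD, n = 7) to 15.3 ± 2.58 (n = 5), with overlap and a log2 fold change of 0.93 (SE 0.20, adjusted p = 0.00204). Without the 2 pooled samples its adjusted p was 0.015, and in a fit of the DA samples alone it was 0.0299. In the aorta Fbln7 had 13.1 CPM in controls and 21.8 in deficient samples (log2 0.73, adjusted p = 0.0342), not called in the main fit. It was called there in 3 of 13 other settings, such as limma-voom (0.00673) and a fit of the aorta samples alone (0.0027). The same held in 1 of the 23 fits that left out 1 sample.

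The 3 that fell in the DA were Ltbp1, Adamtsl2 and Adamtsl3, each with ranges apart, and all of them were also called higher in the DA between the control vessels. Ltbp1, a latent TGF-β binding protein that docks on fibrillin, fell from 597 CPM ± 137 (SD, n = 7) to 380.1 ± 63.5 (n = 5), a log2 fold change of -0.65 (SE 0.13, adjusted p = 0.000981). In the aorta Ltbp1 rose from 255 ± 32.7 (n = 6) to 392 ± 39.3 (n = 5), by 0.62 (SE 0.13, adjusted p = 0.00368), and the effects differed by -1.27 (SE 0.19, adjusted p = 6.32e-05). The aorta call was lost without Prdm6-deficient aorta replicate 1 or 5 or control aorta replicate 1, 2 or 6 (adjusted p up to 0.017). Adamtsl2, which binds fibrillin-1 and Ltbp1, fell in the DA from 56.6 CPM to 25.3 (log2 -1.16, SE 0.26, adjusted p = 0.00247). Without Prdm6-deficient DA replicate 5 that difference was -1.10 (adjusted p = 0.01), without replicate 7 it was -1.04 (adjusted p = 0.0109), and the call was lost. Adamtsl2 was also the only gene of the 3 lists called between the vessels of deficient embryos, at 25.3 CPM in the DA and 6.56 in the aorta (log2 1.94, SE 0.28, adjusted p = 0.000624), and without the pooled samples its adjusted p was 0.0101. Adamtsl3, a secreted ADAMTS-like protein, fell from 34.0 CPM to 13.9 (log2 -1.28, SE 0.25, adjusted p = 0.000821), and without the pooled samples the difference was -0.93 (adjusted p = 0.0157).

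In the Prdm6-deficient aorta the other genes of this list that rose were Hmcn1 and Adamts6. Hmcn1, the large fibulin-related hemicentin-1, had 39.5 CPM ± 11.1 (SD, n = 6) in controls and 65.2 ± 12.7 (n = 5) in deficient samples (log2 0.72, SE 0.16, adjusted p = 0.0045), with overlap. Its call was lost in 7 of the 23 fits that left out 1 sample: Prdm6-deficient aorta replicates 1, 2, 4 and 5 and control aorta replicates 1, 3 and 6 (adjusted p up to 0.0186). Adamts6, a protease that cleaves microfibril proteins, differed by 0.85 (SE 0.20, adjusted p = 0.00885), a call lost in 17 of these 23 fits (up to 0.0383). The genes that fell in the aorta were Adamtsl5 and Thsd4. Adamtsl5, a heparin- and fibrillin-binding protein, fell from 39.0 CPM to 17.2 (log2 -1.18, SE 0.20, adjusted p = 0.000378). Thsd4, which promotes fibrillin-1 assembly, differed by -0.56 (SE 0.13, adjusted p = 0.00963), and its call was lost in 14 of the 23 fits (up to 0.0418).

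Among 9 genes of cross-linking and lysyl oxidase maturation, 1 rose and 1 fell in each vessel without Prdm6, and the median log2 fold change was 0.11 in the DA and 0.03 in the aorta. Of all tested genes, 5.43% were called in the DA and 2.45% in the aorta. Postn, which encodes periostin, a matricellular protein that helps Bmp1 to activate lysyl oxidase, rose in both. Its CPM was 3742 at the highest and 2564 at the lowest in the Prdm6-deficient DA, above the control range of 629 to 1912, a 2.60-fold difference (log2 1.38, SE 0.17, adjusted p = 1.38e-06). In the aorta it rose 2.32-fold, from 2101 CPM ± 207 (SD, n = 6) to 4865 ± 264 (n = 5) (log2 1.21, SE 0.17, adjusted p = 3.44e-05). Between control vessels it was lower in the DA (log2 -0.81, SE 0.16, adjusted p = 0.000706), and with each animal as a fixed block the adjusted p was 0.0121.

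The members that fell belong to the lysyl oxidase family and differed by vessel. Loxl4, a lysyl oxidase-like enzyme, fell in the DA to 9.05% of control, from 42.8 CPM ± 11.1 (SD, n = 7) to 3.88 ± 1.63 (n = 5) (log2 -3.47, SE 0.29, adjusted p = 2.78e-09). In the aorta its level was 6.20 CPM in controls and 3.75 in deficient samples (adjusted p = 0.154), and the effects differed by -2.74 (SE 0.38, adjusted p = 3.32e-05). Loxl1, the family member that maintains elastin in adult tissues, fell in the aorta to 55.9% of control, from 847 CPM ± 107 (n = 6) to 473 ± 54.7 (n = 5) (log2 -0.84, SE 0.08, adjusted p = 1.24e-07). In the DA the Loxl1 ranges were also apart, with a log2 fold change of -0.29 (SE 0.08, adjusted p = 0.0152), and the effects differed by 0.55 (SE 0.11, adjusted p = 0.00316). The call of that difference was lost without control aorta replicate 1 or Prdm6-deficient aorta replicate 3 (0.48 each, under the size threshold). It was also lost without the pooled samples (adjusted p = 0.012), with library totals only (0.49, adjusted p = 0.0292) and with the replicate block (0.52, adjusted p = 0.0166).

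Between the control vessels, Loxl2 (log2 0.71, adjusted p = 3.97e-06) and Loxl4 (log2 2.78, adjusted p = 1.49e-08) were higher in the DA, and Loxl1 (log2 -0.51, adjusted p = 1.92e-05) and Ltbp4, which guides fibulin-5 to microfibrils (log2 -0.54, adjusted p = 0.000203), were higher in the aorta. The Loxl1 difference fell under the size threshold, at -0.45, without control aorta replicate 1. Of 7 elastin-degrading proteases, 6 had enough reads to be tested and edgeR called none of these between genotypes in either vessel. DESeq2 and limma-voom also called none there. At an unadjusted p under 0.05 there were 3 in the DA (23.7% of all tested genes) and 2 in the aorta (14%). Mmp14, a membrane-bound matrix metalloproteinase, was called between the control vessels, at 579 CPM ± 97.2 (n = 7) in the DA and 403 ± 16.1 (n = 6) in the aorta (log2 0.52, SE 0.09, adjusted p = 8.48e-05). Without control DA replicate 3, 5 or 7 the difference was 0.46, 0.49 or 0.48, under the size threshold, and with each animal as a fixed block it was 0.45.

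**Figure D4:**
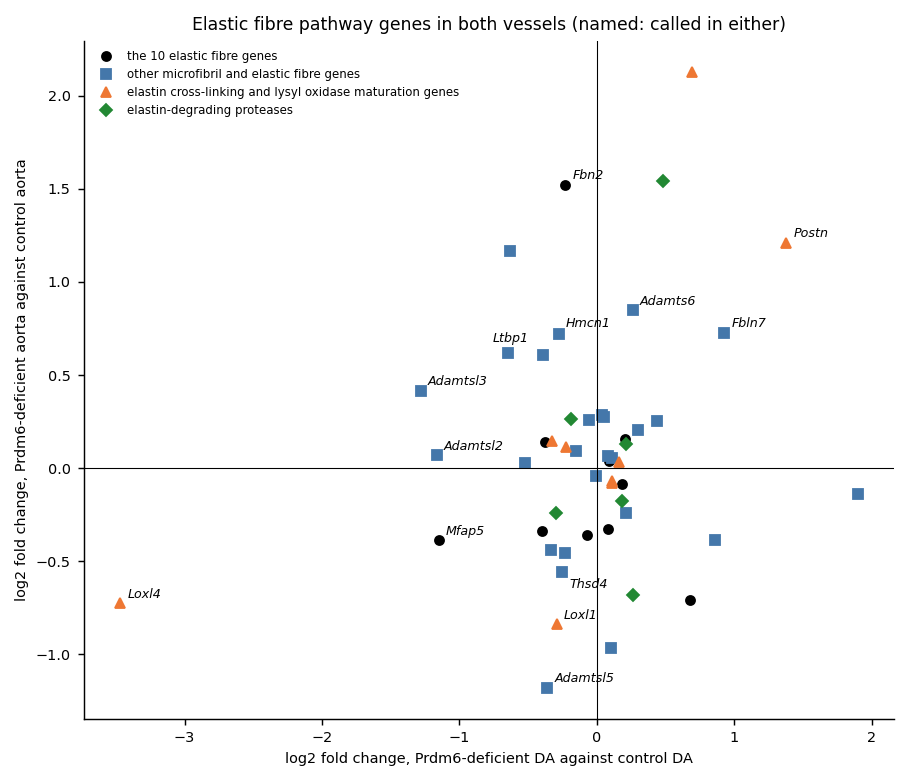
Log2 fold change between genotypes in the DA (x axis) and in the aorta (y axis) for the 10 elastic fibre genes (black circles) and the 3 lists of other pathway genes (coloured symbols), with names for genes called in either vessel. Loxl4 stands far to the left at -3.47 and -0.73, Postn lies at 1.38 and 1.21, and Fbn2 at -0.23 and 1.52.

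The labels were checked on the targeted gene and on marker genes. Prdm6 had 58.6 to 78.5 CPM in Prdm6-deficient DA against 84.9 to 128 in control DA, and 61.9 to 81.2 in deficient aorta against 95.6 to 135 in control aorta, and fell in both (log2 -0.57 and -0.69, adjusted p = 0.000553 and 0.00017). The counts are for the whole gene and not for the deleted part. Tfap2b, which marks the DA, averaged 35.9 CPM in control DA, 3.52 in control aorta, and 1.30 and 1.34 in the deficient DA and aorta. It did not tell the deficient vessels apart (log2 -0.067), so it cannot check the vessel labels of the deficient samples. Smooth muscle markers were detected in all samples. Their summed level was 13249.7 to 23546 CPM in control DA and 9531 to 11551 in deficient DA. It was 8249.6 to 11756 in control aorta and 9029 to 10711 in deficient aorta. Like Mfap5, this sum was highest in control DA. Within control DA, Mfap5 had 719, 486, 689, 405, 624, 383 and 602 CPM in replicates 1 to 7. The sums in the same order were 13802.5, 13249.7, 21432, 16538, 23546, 20440 and 17224.5. The part of smooth muscle content in the Mfap5 level was not tested. Of 7 smooth muscle markers, 5 fell in the deficient DA, where 5.43% of all tested genes were called. Between the control vessels 6 were called higher in the DA, against 5.36% of all tested genes.

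The summed level of fibroblast markers also differed by genotype. It was 2972 to 3280 CPM in deficient DA against 1261 to 2445 in control DA. In the aorta it was 2313 to 2912 in deficient samples against 1636 to 2169 in controls. Of the 8 markers, 2 rose in each vessel, Lum and Cd34, where 5.43% (DA) and 2.45% (aorta) of all tested genes were called. In the aorta 4 of 8 had lower estimates and the median log2 fold change was -0.15. Dpt, which encodes the matrix protein dermatopontin, averaged 314 CPM in the deficient aorta and 630 in control aorta, with ranges apart (log2 -1.01, adjusted p = 0.0151, not called). Whether the difference in fibroblast markers has a part in the Fbn2 values of either vessel was not tested. Endothelial markers had sums of 671 to 971 CPM in control DA and 845 to 1173 in deficient DA. The sums were 574 to 996 in control aorta and 759 to 1236 in deficient aorta. In the aorta all 6 had higher estimates, with a median log2 fold change of 0.51. Of these 6, 2 were called, against 2.45% of all tested genes. The part of these cell types in the results was not tested, and in bulk samples fewer cells of a type and less RNA per cell cannot be told apart. Schwann cell and neuron, cardiomyocyte, macrophage, red cell and mesothelial markers had no gene called by edgeR between genotypes in either vessel. DESeq2 called 2 of 5 macrophage markers in the aorta and limma-voom 2 of 5 Schwann cell and neuron markers in the DA. At an unadjusted p under 0.05 edgeR had 4 of 5 macrophage markers in the aorta (14% of all tested genes). Their summed level there was 37.7 to 55.5 CPM in deficient samples and 66.5 to 125 in controls. In the DA edgeR had 2 of 5 Schwann cell and neuron markers at that threshold (23.7% of all tested genes). Single libraries stood apart in some sums. Control DA replicate 1 had a cardiomyocyte sum of 1001 CPM (group median 91.0), and replicate 7 a Schwann cell and neuron sum of 153 (15.9). Red cell sums were 27529 in Prdm6-deficient DA replicate 1 (6765) and 27421 in control aorta replicate 4 (8045). The part of these libraries in the results was seen only by leaving out 1 sample at a time.

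**Figure D5:**
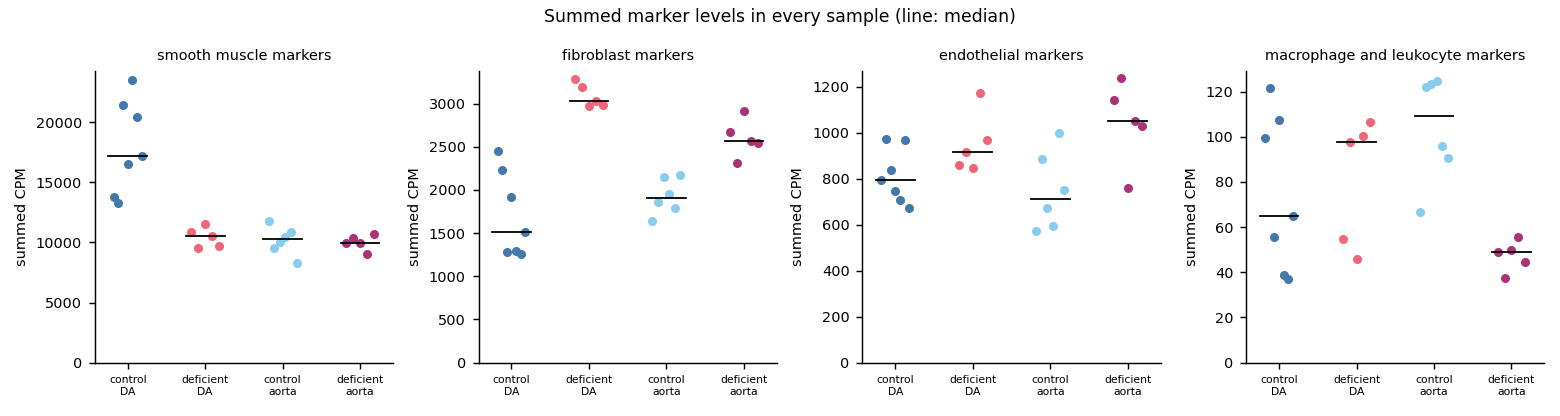
Summed CPM (y axis, from 0) of 4 lists of marker genes in every sample of the 4 groups (x axis), with a line at the median. Smooth muscle markers are highest in control DA, with a median of 17224.5 CPM, and fibroblast markers in the Prdm6-deficient DA, with a median of 3025.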

How the data were processed

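RNA-Seq was analysed in 23 libraries. The authors filtered reads with FASTX and tagdust, aligned them to mm10 with STAR and deposited RSEM expected counts per gene. Tool versions are not given in the sources used here, the genotypes come from the labels, and the counts are of whole genes. Of the values, 7.71% were not whole, and all were rounded. No column was left unmatched. Gene names and lengths came from GENCODE M21, which held 54723 of 54752 identifiers. The authors state another GENCODE version.

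Counts were filtered with filterByExpr, scaled by TMM and tested with edgeR 4.0.16 (glmQLFit and glmQLFTest, R 4.3.3), with 1 mean per vessel and genotype and all samples in 1 fit. Adjustment was by Benjamini-Hochberg over 16463 genes, and calls needed an adjusted p under 0.01 and a log2 fold change beyond 0.5, the thresholds of the study, which names no test. limma-voom (limma 3.58.1) and DESeq2 1.42.0 were alternatives, and the scripts were tested on simulated data. All 10 genes are named, with any gene of the 3 other lists called between 2 groups. For pattern likeness the nearest gene is named, and for Eln the nearest 3. Likeness was taken over log2 CPM with a prior count of 0.5.

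The members and lists were chosen with earlier results of these data known. Nothing says whether samples of a group came from separate litters, so the p-values measure the spread between these samples. Vessels of the same animal are treated as separate samples in the main test. By the labels, 6 control animals and 2 Prdm6-deficient animals gave 1 sample of each vessel, and the pool that is Prdm6-deficient DA replicate 2 came from the 2 animals of Prdm6-deficient aorta replicates 1 and 2. The animal blocks gave this pool an identity of its own. The comparisons share groups: the vessel comparison of controls uses the same control samples as both genotype comparisons.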

Additional observations from a re-analysis of the deposited data

Results flagged for a closer look

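Among the 40 sets of values formed by the 10 genes in 4 groups, 3 held a sample far from the others, and chance gives about 1 in 20. All 3 were in the Prdm6-deficient DA. Replicate 5 had the lowest Fbln1 level, 122 CPM, with the nearest other sample at 190.4, and the highest Lox level, 1365 CPM, with the nearest at 1253. Replicate 6 had the highest Fbln2 level, 1085 CPM, with the nearest at 888.

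The effect of Prdm6 loss differed between the vessels in 1 of the 10 genes, Fbn2, by -1.75 on the log2 scale (DA effect minus aorta effect). It also differed in 5 of the other pathway genes: by -1.27 in Ltbp1, -1.0003 in Hmcn1, -1.70 in Adamtsl3, 0.55 in Loxl1 and -2.74 in Loxl4. These are tests of the difference itself, by edgeR over all genes. The Hmcn1 call was lost in 7 of the 23 fits that left out 1 sample (Prdm6-deficient DA replicates 2 and 7, Prdm6-deficient aorta replicates 1, 2, 4 and 5, and control aorta replicate 3), without pooled samples and without Cre-carrying controls, with adjusted p up to 0.0165. The Adamtsl3 call was lost without pooled samples (-1.35, adjusted p = 0.0136).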

How the results depend on the processing

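The 10 genes were refitted under 37 settings, of which 23 left out 1 sample each. Of 1800 values, 1752 kept their direction and their side of the thresholds, no call was lost, 22 calls were gained and 26 values changed sign. The number of the 10 called in the DA was 2 in place of 1 without the Cre-carrying controls, where Fbln1 was gained (0.85, adjusted p = 0.00908), and 1 to 2 when single samples were left out. It was 2 in the aorta and 1 between the deficient vessels in fits of only the groups compared, both through Fbln1. For the difference of effects it was 4 with DESeq2, 3 with library totals only, 3 without a low-count filter, 2 with limma-voom, 2 without the Cre-carrying controls, 2 with the replicate block, 2 with animal as a random block and 1 to 3 with single samples left out. The genes gained there were Fbln1 (1.39 to 1.56), Mfap5 (-0.84 to -0.76) and Fbln5 (-0.59 and -0.52), and the cause was not tested.

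The values that changed sign were near 0. Efemp2 between control vessels was 0.0064 with DESeq2, 0.0063 with RLE size factors, 0.029 with library totals only, 0.056 without Cre-carrying controls and 0.0076 with animal as a fixed block (-0.042 to 0.044 with single samples left out). Eln between deficient vessels was 0.0047 with DESeq2 and with RLE, and 0.060 without pooled samples (-0.061 to 0.060 with single samples left out). For the difference of effects, library totals only gave -0.024 for Fbn1 and -0.018 for Efemp2, and leaving out Cre-carrying controls gave 0.021 for Fbln2 and -0.0081 for Efemp2. With single samples left out, Fbn1 reached -0.013 and Fbln2 ran from -0.17 to 0.0019. Adamtsl2 in the aorta was -0.039 without Cre-carrying controls (-0.086 to 0.40 with single samples left out), and Efemp2 between deficient vessels was -0.0051 with the replicate block. Over all genes, calls in the aorta went from 404 to 702 in a fit of only the groups compared. Between deficient vessels they went from 44 to 137 with DESeq2, 83 with only the groups compared, 15 without pooled samples, 16 with the replicate block, 69 with animal as a random block and as few as 22 with 1 sample left out.

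Within the first run of animal numbers, with 2 deficient and 1 control aorta samples and no test, the aorta differences were -0.017 for Fbn1, -1.15 for Fbln1, 0.0011 for Fbln5, -0.16 for Efemp2 and -0.62 for Mfap4. Same-numbered samples deviated together with correlations of only -0.064 to 0.109 over all tested genes, so the numbers were not taken as pairs. For vessels of 1 animal the correlations were -0.028 to 0.065. These are paired by their labels whatever the correlation, and only the animal blocks used that pairing. The replicate block groups samples by these numbers, which can differ between the vessels of 1 animal. Prdm6-deficient DA replicate 5 and aorta replicate 3, for example, came from 1 animal. Fits with that block therefore do not show whether a result holds within animals.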
